A study of Mus musculus with 6 samples.

Results

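Rab GTPases are small membrane-bound switches that each mark a step of vesicle traffic, and their mRNAs were followed here in regenerating mouse hepatocytes. The genes were chosen by name: of 59 gene symbols made of Rab, a number and an optional letter, 37 had a mean of at least 1 TPM (a length-corrected share of the library's transcripts) over 6 libraries. The other 22 lay below that level, and the table held 35970 symbols in all, of which 10598 reached it. Rab31 was the member closest above the limit, with a mean of 2.14 TPM, and Rab36 (0.703 TPM) and Rab27a (0.625 TPM) were the closest below it.

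All 6 mice lacked Fah, an enzyme of tyrosine breakdown, and carried dCas9, a Cas9 that binds DNA without cutting it and blocks transcription where a guide RNA leads it (CRISPR interference, CRISPRi). Each received 10 µg of the plasmid pkt2-fah-GFPL10a-CRISPRi by hydrodynamic tail-vein injection, with either a Nontargeting guide (3 mice) or a guide to Neurl1b (3 mice), together with the Cre virus AAV8.TBG.PI.Cre.rBG, whose TBG promoter is active in hepatocytes. Controls and treated mice therefore shared the Fah deletion, dCas9, the Fah and GFP-L10a plasmid and Cre. Nitisinone, which protects Fah-deficient liver, had been given at 7.5 µg/mL and was stopped at injection, and the livers were taken 4 weeks later. From 400 mg of liver, ribosomes with GFP-tagged L10a were captured by anti-GFP pulldown, so the values are mRNA levels on the tagged ribosomes of plasmid-bearing cells, not protein levels or Rab activity. The labels used here give no age for the animals. In such a bulk sample, fewer cells of a type and less RNA per cell cannot be told apart.

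A Rab protein cycles between a GTP-bound form that sits on a membrane and recruits effectors (tethers, motors, lipid enzymes) and a GDP-bound form that a dissociation inhibitor carries through the cytosol. Exchange factors load GTP, GTPase-activating proteins end the cycle, and an escort protein with a prenyl transferase attaches the lipid anchor. Hepatocytes rely on this system to secrete plasma proteins and lipoproteins at the blood side, to send proteins and lipids to the bile canaliculus, and to take up receptors and their cargo. Neurl1b, the gene targeted, encodes a ubiquitin ligase known for promoting the endocytosis of Notch ligands.

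Neurl1b itself stood at 1.22, 0.897 and 0.688 TPM in non-targeting mice 1, 2 and 3 and at 0.295, 0.351 and 0.307 TPM in CRISPRi mice 1, 2 and 3, so the groups did not overlap. Its log2 fold change, here always of TPM + 1 and CRISPRi minus non-targeting, was -0.55 ± 0.11 (SE), with a limma adjusted p of 0.430 in a fit with no filter on low values. Across the series, the controls were unlike each other. The log2 values of non-targeting mouse 1 correlated with the CRISPRi libraries at 0.982 to 0.987 and with control mice 2 and 3 at 0.965 and 0.974. Control mouse 2 was the farthest from the CRISPRi libraries, at 0.950 to 0.959. Control mouse 3 stood at 0.968 to 0.976 with them and at 0.978 with control mouse 2. These correlations are a description over 10598 genes that share each library. Hepatocyte markers were by far the most abundant of the marker lists, with all 7 at or above 1 TPM and sums of 22327 to 32418 TPM in 5 libraries and 58130 TPM in non-targeting mouse 2. That control also stood apart in red cell markers (1985 TPM, against 262 to 831 elsewhere) and in neutrophil and platelet markers (54.8 TPM, against 4.08 to 19.0), and their part in the Rab levels of that mouse was not tested. TPM keep no sequencing depth, so depth is unknown and no counting interval is given.

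With all 6 mice, no Rab gene differed past the threshold between Neurl1b CRISPRi and non-targeting livers. Of the 37 members, 31 (83.8%) had a log2 fold change above 0, against 74% of all genes tested, and their median was 0.31, against 0.18. None passed an adjusted p of 0.05 in limma, where 0.0189% of all genes did (2 of 10598), and the smallest adjusted p of a member was 0.310. At an unadjusted p of 0.05, 3 members were higher and 0 lower, which is 8.11% of the members against 10.1% of all genes higher and 3.19% lower. The groups did not overlap for 6 members (Rab31, Rab3d, Rab11a, Rab4a, Rab43 and Rab12), each higher in CRISPRi, which is 16.2% against 12.5% of all genes higher and 4.57% lower. These shares lie near the background and are no result about the Rabs.

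Most of the distance between groups lay in non-targeting mice 2 and 3. Non-targeting mouse 1 reached the lowest CRISPRi value or more in 28 of 37 members, while mouse 2 fell below the CRISPRi range in 31 and mouse 3 in 29. Mouse 1 was the highest control for 75.7% of members and for 67.9% of all genes. The fit without non-targeting mouse 1 (2 controls against 3) called 16 members higher and 0 lower, 43.2% of them, but it also called 23.1% of all genes higher and 2.24% lower, and it moved the median of all genes to 0.29, beside 0.39 for the Rabs. The 16 were Rab5c, Rab31, Rab11a, Rab11b, Rab7, Rab12, Rab1a, Rab1b, Rab2a, Rab18, Rab6a, Rab10, Rab8a, Rab3d, Rab3a and Rab40c. When these 5 libraries were also brought to a common median by median-of-ratios scaling, 2 members (Rab31 and Rab3d) remained past the threshold, 5.41% against 1.74% of all genes higher and 2.74% lower, with 0 members lower. That scaling, applied to all 6 libraries, took the median of all genes from 0.18 to -0.0013 and that of the Rabs to 0.10, with 26 of 37 above 0 (70.3%, against 49.8% of all genes). Non-targeting mouse 1 was singled out after its values were seen, and leaving out the highest control of most members widens most differences. Adjusted p-values without it, here and below, are therefore selected and are no independent support. With control mouse 2 or 3 left out instead, no member passed. The smallest limma adjusted p was then 0.626 (Rab31) and 0.566 (Rab31 and Rab3d).

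**Figure D1:**
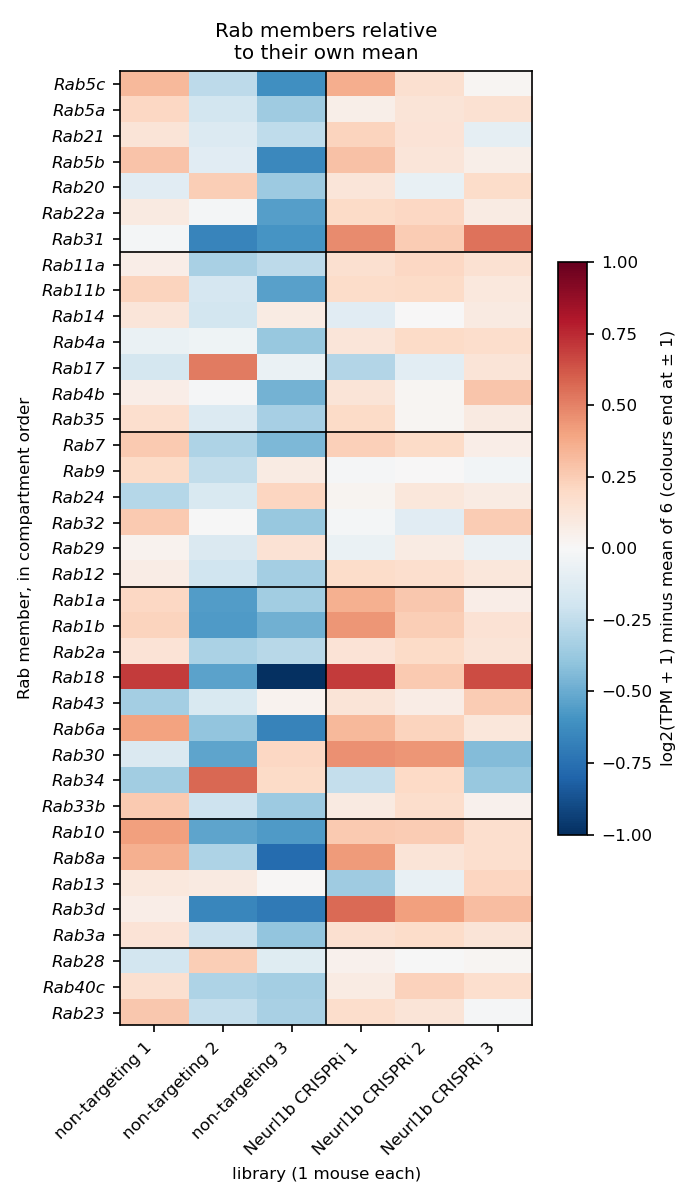
Log2(TPM + 1) of each Rab member minus its own mean over the 6 libraries (colour, red above and blue below the mean, ending at ± 1), with members in rows by compartment and 1 mouse per column. Non-targeting mice 2 and 3 are mostly blue, and non-targeting mouse 1 looks like the CRISPRi mice, matching the 28 of 37 members in which it reached the CRISPRi range.

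The controls also varied more. The SD was larger among controls than among CRISPRi mice for 35 of 37 members (94.6%, against 76.7% of all genes). The highest control exceeded the lowest by a median factor of 1.63, and the highest CRISPRi mouse exceeded the lowest by 1.15, where all genes gave 1.61 and 1.23. More than a 1.5-fold range was seen in 22 members among controls and in 3 among CRISPRi mice. The share of all genes past that range was not computed, so these counts are no result about the Rabs.

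The summed TPM of the 37 members was 1974, 1426 and 1378 in the controls and 2053, 1975 and 1909 in CRISPRi mice. The controls thus ran from a level inside the CRISPRi range down to well below it, with means of 1593 ± 331 and 1979 ± 72.2 TPM (SD, n = 3 each), or 0.159% and 0.198% of a library. A few genes made up most of this pool. Rab11a alone was 13.4% of it, followed by Rab1a (9.88%), Rab7 (9.36%), Rab1b (9.32%), Rab2a (7.31%) and Rab5c (5.85%), and these 6 were the members with a mean of at least 100 TPM. Another 25 lay between 10 and 100 TPM and 6 between 1 and 10.

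**Figure D2:**
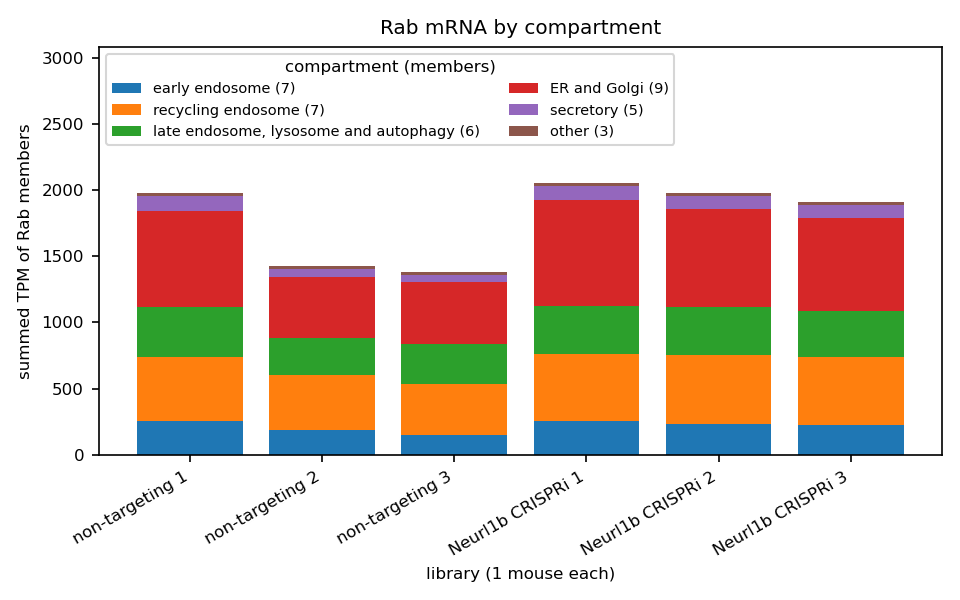
Summed TPM of the Rab members (vertical axis) in each library, 1 bar per mouse, split by compartment. Non-targeting mouse 1 (1974) stands at the height of the CRISPRi mice (1909 to 2053), and non-targeting mice 2 and 3 (1426 and 1378) stand lower.

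By compartment, ER and Golgi Rabs were the largest share of the pool, at 34.2 ± 2.45% in controls and 37.6 ± 1.15% in CRISPRi mice. Recycling Rabs made up 27.3 ± 2.13% and 25.8 ± 1.29%, early endosome Rabs 12.2 ± 1.28% and 12.0 ± 0.447%, and secretory Rabs 4.72 ± 0.641% and 5.09 ± 0.0783%. The late endosome, lysosome and autophagy share was 19.1%, 20.0% and 21.7% in controls and 17.9%, 18.6% and 18.4% in CRISPRi mice. It was the only one of these 5 shares whose groups were fully apart with the CRISPRi mice lower, a description of fractions that must sum to the same total.

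**Figure D3:**
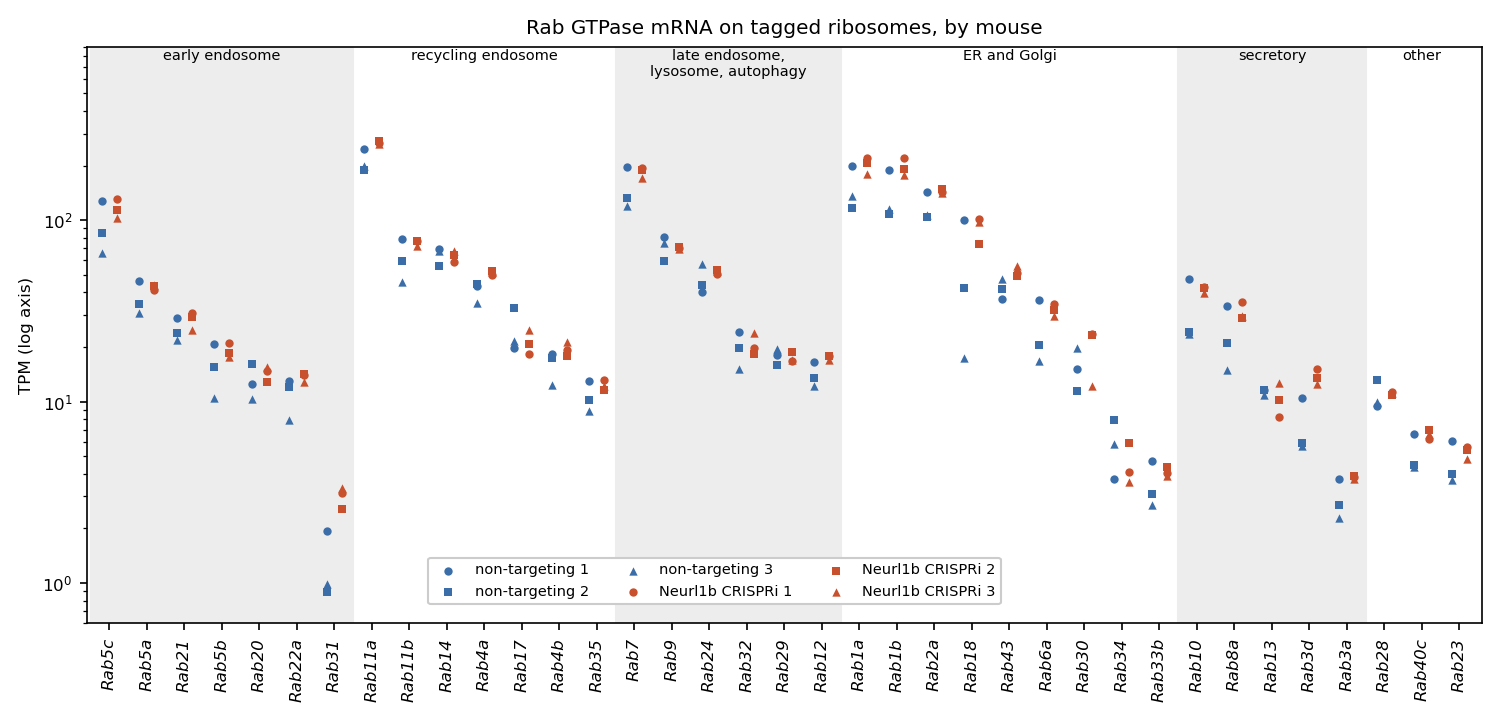
TPM of each Rab member (log axis) in every library, blue for non-targeting and orange for Neurl1b CRISPRi, with the mouse number given by the marker shape and members ordered by compartment and level. Levels run from about 1 TPM for Rab31 to 275 TPM for Rab11a, and for most members the blue circle (mouse 1) lies beside the orange points.

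The promoters of Rab31 and Rab3d, the 2 members that passed without non-targeting mouse 1 under both scalings, are shown for context. They come from RefSeq on GRCm38.p6, minus strand, 5′ to 3′, and end before the RefSeq start or the first exon base in GENCODE vM21, an annotation of the same build. The stretches lie at chr17:65772753-65773002 (Rab31) and chr9:21918193-21918433 (Rab3d). Capitals mark matches, on either strand, to GGGCGG, the GC box bound by Sp1.
Rab31: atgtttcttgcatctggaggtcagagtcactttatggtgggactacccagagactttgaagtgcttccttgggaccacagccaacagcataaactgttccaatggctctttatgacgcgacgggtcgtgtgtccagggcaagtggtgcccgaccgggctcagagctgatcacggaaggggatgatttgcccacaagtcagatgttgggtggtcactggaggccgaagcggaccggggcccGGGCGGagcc
Rab3d: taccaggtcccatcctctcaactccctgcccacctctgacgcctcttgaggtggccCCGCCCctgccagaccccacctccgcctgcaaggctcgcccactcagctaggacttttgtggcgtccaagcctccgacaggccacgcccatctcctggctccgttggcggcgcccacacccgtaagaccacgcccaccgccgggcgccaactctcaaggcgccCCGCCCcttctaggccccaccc
The Rab31 stretch holds 1 GC box and the Rab3d stretch 2, the latter both read on the opposite strand.

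A search of whole promoter windows (250 bases before to 50 after the RefSeq start, both strands) covered 33 of the 37 members, 8271 tested genes and 27025 genes in all. GGGCGG was found in 25 of 33 members (75.8%), in 68.1% of tested genes and in 38.2% of all genes. With the first window of each gene taken, the median GC content was 63.3% in members, near the 60.7% of tested genes. The E-box CACGTG, the core bound by the lysosomal regulators of the MiT/TFE family, was in 5 (15.2%, against 12.1%), and the antioxidant-response core TGACNNNGC in 6 (18.2%, against 17.2%). The AP-1 motif TGANTCA was in 1, Rab34 (3.03%, against 6.19%). A match is a description and not a bound site.

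Early endosome Rabs take newly formed endocytic vesicles into the sorting endosome. All 7 tested members had a log2 fold change above 0 (5 of 7 after median-of-ratios scaling), with a median of 0.31, and none passed the threshold. At an unadjusted p below 0.05, 1 (Rab31) was higher, 14.3% against 10.1% of all genes. Rab31, which acts between the trans-Golgi and endosomes, was the least abundant member of the family and stood at 1.94, 0.889 and 0.987 TPM in the controls and 3.14, 2.56 and 3.34 TPM in CRISPRi mice. Every CRISPRi mouse exceeded every control, and mouse 1 was the highest control. The means were 1.27 ± 0.580 and 3.01 ± 0.407 TPM (SD, n = 3), a ratio of 2.37. On the log2 scale the difference was 0.85 ± 0.21 (SE), with an unadjusted p of 0.00376 and a limma adjusted p of 0.310. It was 1.05 ± 0.14 without non-targeting mouse 1, with a limma adjusted p of 0.0173. Leaving out control mouse 2 or 3 instead gave 0.73 and 0.76, with limma adjusted p of 0.626 and 0.566. The main Rab31 transcript held 81.6% of the TPM and did not overlap between groups (limma adjusted p 0.500). It is most of the same Rab31 values and is no separate support.

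Among the marker lists of other cell types, only the stellate cell sum was apart between the groups. The summed TPM of 7 stellate cell markers, the vitamin A storing cells around the sinusoids, was 11.8 to 22.0 in controls and 27.7 to 38.4 in CRISPRi mice. These groups were apart, 5 of the 7 markers reached a mean of 1 TPM, and none was at 0 in every library. Decorin (Dcn) supplied most of the sum, at 9.11, 7.08 and 12.7 TPM in controls and 23.7, 23.1 and 15.4 in CRISPRi mice. Kupffer cell and macrophage markers (6 of 7 reaching 1 TPM) summed to 44.2 to 86.4 TPM in controls and 68.7 to 99.5 in CRISPRi mice, which overlap. Within that list 4 of 7 markers (Csf1r, Vsig4, Cd68 and Adgre1) were apart and higher in CRISPRi mice, such as Csf1r at 2.29 to 3.71 and 5.21 to 8.03 TPM. Sinusoidal endothelium markers (3 of 7 reaching 1 TPM) summed to 15.0 to 20.9 and 15.5 to 22.4 TPM, with Stab2, Cdh5 and Ptprb apart and higher in CRISPRi mice and Pecam1 apart and lower (6.68 to 8.49 and 4.77 to 6.29 TPM). Cholangiocyte markers (3 of 6) gave 13.3 to 25.7 and 15.9 to 23.8. Among them Krt19 was apart and higher in CRISPRi mice (0.264 to 2.65 and 2.98 to 4.04 TPM), and Cftr, near 0, apart and lower. In the hepatocyte and red cell lists 1 marker each was apart and lower. These were Serpina1a (1013 to 3213 and 538 to 695 TPM) and Alas2 (6.36 to 17.2 and 3.34 to 5.07 TPM). Lymphocyte markers, all with a mean below 1 TPM, summed to 1.54 to 2.25 and 0.573 to 1.64 TPM. Within that list Nkg7 was apart and lower in CRISPRi mice and Ms4a1 apart and higher. Over all tested genes, 12.5% were apart and higher and 4.57% apart and lower. The part of these markers in the difference of Rab31, or in that of Rab3d below, was not tested.

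Rab5c, one of 3 Rab5 paralogs that drive early endosome fusion, was the most abundant of this compartment, at 128, 84.8 and 66.1 TPM in controls and 131, 114 and 103 in CRISPRi mice. Its first control stood with the CRISPRi mice and the groups overlapped. The log2 fold change was 0.37 ± 0.24 (limma adjusted p 0.470). Leaving out control mouse 1 gave 0.62 (limma adjusted p 0.0447), and leaving out control mouse 3 gave 0.15. Rab5c made up 61.6% to 67.8% of Rab5 TPM over the 6 libraries, and Rab5a and Rab5b had log2 fold changes of 0.22 and 0.31. Rab22a, which sorts cargo at the early endosome, stood at 13.0, 12.0 and 7.95 TPM and at 14.0, 14.2 and 12.9 TPM. Its first control met the CRISPRi range and the third was clearly lower, and its log2 fold change was 0.32 ± 0.21 (limma adjusted p 0.463). Rab21, an integrin trafficking Rab, and Rab20, linked to phagosome maturation, had values of 0.18 and 0.15.

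Recycling Rabs return receptors and membrane to the surface and, in polarised hepatocytes, supply the canalicular membrane. Of 7 tested members 5 had a log2 fold change above 0, with a median of 0.28, and none passed the threshold. Rab11a, the slow recycling Rab and the most abundant family member, stood at 248, 190 and 198 TPM in controls and 265, 275 and 263 in CRISPRi mice. The highest control was below the lowest CRISPRi mouse, and the CRISPRi mice were close together. The log2 fold change was 0.34 ± 0.16 (limma adjusted p 0.386), and 0.46 ± 0.10 without non-targeting mouse 1 (limma adjusted p 0.0311). Rab11b had 78.3, 59.6 and 45.7 TPM in controls and 76.3, 76.7 and 72.0 in CRISPRi mice, so the first control was within or above the CRISPRi values. Its log2 fold change was 0.32 ± 0.21 (limma adjusted p 0.461). It was 0.51 when control mouse 1 was left out (limma adjusted p 0.0498) and 0.13 when control mouse 3 was. Rab11a was 76.0% to 81.2% of Rab11 TPM.

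Rab4a, the fast recycling Rab, was at 43.6, 44.4 and 34.8 TPM in controls and 49.8, 52.2 and 51.7 TPM in CRISPRi mice. The groups did not overlap, and here the third control was the low one. The log2 fold change was 0.32 ± 0.16 (limma adjusted p 0.400), and 0.37 ± 0.14 without non-targeting mouse 1 (limma adjusted p 0.0902), so this member stayed below the threshold there. Rab4b and Rab35 had log2 fold changes of 0.28 and 0.20. Rab17, an epithelial Rab of apical recycling, and Rab14, of the Golgi to endosome step, were at -0.18 and -0.01. For Rab17 the second control, with 32.7 TPM, was the highest library, and the difference of the means, 24.7 ± 7.01 TPM in controls and 21.3 ± 3.29 in CRISPRi mice (SD, n = 3), was smaller than the control SD.

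Late endosome, lysosome and autophagy Rabs carry cargo to degradation. Their median log2 fold change was 0.12 over 6 members, 4 above 0 (2 after median-of-ratios scaling), with none past the threshold. The sign depended on the scaling: it was -0.09 after median-of-ratios scaling and -0.04 after quantile normalization. Rab7, the Rab of late endosome and lysosome fusion, stood at 197, 132 and 120 TPM in controls and at 194, 188 and 172 TPM in CRISPRi mice, so the first control was the highest of all libraries. The log2 fold change was 0.33 ± 0.20 (limma adjusted p 0.454), and without non-targeting mouse 1 it was 0.54 ± 0.12 (limma adjusted p 0.0288). Rab12, of receptor sorting to the lysosome, was at 16.6, 13.5 and 12.2 TPM and at 17.9, 17.8 and 17.0 TPM. Its groups did not overlap, though the first control came close to the CRISPRi mice, and the log2 fold change was 0.31 ± 0.17 (limma adjusted p 0.426), or 0.42 with control mouse 1 left out (limma adjusted p 0.0425). Rab24, linked to autophagy, was at 40.1, 44.1 and 57.2 TPM and at 50.2, 53.2 and 52.2 TPM, with the third control above every CRISPRi mouse. Its log2 fold change of 0.15 ± 0.18 (limma adjusted p 0.654) turned to -0.06 after median-of-ratios scaling. Rab9 (-0.02), of the late endosome to Golgi route, and Rab29 (-0.03) were near 0, and Rab32, of lysosome-related organelles, was at 0.08.

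ER and Golgi Rabs move secretory cargo through its first stations. Of the 9 members 8 had a log2 fold change above 0 with a median of 0.31. At an unadjusted p below 0.05, 1 (Rab1b) was higher, 11.1% against 10.1% of all genes. The paralogs Rab1a and Rab1b, which tether ER-derived vesicles to the Golgi, were almost equally abundant, with Rab1a at 50.2% to 54.1% of their sum. Rab1a stood at 199, 117 and 135 TPM in controls and 221, 207 and 180 in CRISPRi mice, and Rab1b at 188, 108 and 115 TPM and 219, 191 and 178 TPM. In both, the first control lay inside the CRISPRi range and the other two below it. The log2 fold change of Rab1b was 0.55 ± 0.23, a ratio of means of 1.43, with an unadjusted p of 0.0390 and a limma adjusted p of 0.363. Rab1a had 0.46 ± 0.22 (limma adjusted p 0.392). Without non-targeting mouse 1 the values were 0.80 (limma adjusted p 0.0199) and 0.68 (limma adjusted p 0.0271).

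Rab18, a Rab of the ER and lipid droplets, showed the widest spread of the family, at 101, 42.3 and 17.3 TPM in controls and 101, 74.3 and 97.9 TPM in CRISPRi mice. The controls spanned a 5.81-fold range that began at the CRISPRi maximum, against 1.36-fold among CRISPRi mice. The log2 fold change was 1.08 ± 0.52 (limma adjusted p 0.395), the largest of the members, and it was 1.69 without non-targeting mouse 1 (limma adjusted p 0.0290). Leaving out control mouse 3 instead gave 0.46, so the third control set most of its size. Rab2a (0.30), Rab6a (0.44) and Rab43 (0.31), all of Golgi traffic, and Rab30 (0.31) and Rab33b (0.21) were above 0. Rab43 was apart in all mice, at 36.6, 41.7 and 47.6 TPM in controls and 51.0, 49.1 and 55.6 TPM in CRISPRi mice, and here the first control was the lowest. Its log2 fold change turned to -0.13 with control mouse 1 left out under median-of-ratios scaling. Rab34 had a log2 fold change of -0.28, with control values of 3.73 to 7.95 TPM that held all of the CRISPRi range but its lower end of 3.62.

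Secretory Rabs dock and move vesicles at the plasma membrane. They had the highest compartment median, 0.46 over 5 members with 4 above 0, but 5 genes are few, and the median ran from 0.22 without non-targeting mouse 3 to 0.78 without non-targeting mouse 1. Rab3d, a Rab of regulated secretion, stood at 10.4, 5.93 and 5.69 TPM in controls and 15.1, 13.5 and 12.5 TPM in CRISPRi mice. No control reached a CRISPRi mouse, and mouse 1 was again the highest control. The means were 7.36 ± 2.68 and 13.7 ± 1.31 TPM (SD, n = 3), a ratio of 1.86, and the log2 difference was 0.86 ± 0.24 with an unadjusted p of 0.00619 and a limma adjusted p of 0.323. Without non-targeting mouse 1 it was 1.11 ± 0.12 (limma adjusted p 0.0173). Leaving out control mouse 2 or 3 instead gave 0.75 and 0.72, with limma adjusted p of 0.642 and 0.566. Rab3d took a larger part of the Rab3 paralogs' TPM, at 72.3%, 67.6% and 69.1% in controls and 77.6%, 75.4% and 76.3% in CRISPRi mice, groups that did not overlap. This share is computed from the same Rab3d values and is no separate support.

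Rab10 and Rab8a, which steer vesicles to the basolateral surface and the cell cortex, behaved like most members. Rab10 stood at 47.4, 24.2 and 23.6 TPM in controls and at 42.6, 42.5 and 39.8 TPM in CRISPRi mice. Its first control was the highest library and the other two were clearly low, and the log2 fold change was 0.46 ± 0.26 (limma adjusted p 0.437). It was 0.78 without non-targeting mouse 1 (limma adjusted p 0.0173), and 0.29 when control mouse 3 was left out instead. Rab8a stood at 33.8, 20.9 and 15.0 TPM and at 35.6, 28.8 and 29.6 TPM, again with 1 control inside the CRISPRi range, and its log2 fold change was 0.49 ± 0.28 (limma adjusted p 0.430). Here the corresponding values were 0.78 (limma adjusted p 0.0324) and 0.22. Rab3a, of the same family as Rab3d, was at 0.32, and Rab13, of tight junction traffic, was at -0.14, with controls of 10.9 to 11.6 TPM inside a CRISPRi range of 8.21 to 12.6.

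The remaining members have other roles. Rab40c, part of a ubiquitin ligase, was at 6.60, 4.50 and 4.38 TPM and at 6.22, 6.96 and 6.64 TPM, with its first control inside the CRISPRi range and a log2 fold change of 0.32 ± 0.19 (limma adjusted p 0.446), or 0.48 with control mouse 1 left out (limma adjusted p 0.0338). Rab23, a regulator of hedgehog signalling, was at 6.09, 4.00 and 3.69 TPM and at 5.65, 5.43 and 4.83 TPM, with the first control the highest and a log2 fold change of 0.20 ± 0.21 (limma adjusted p 0.626), or -0.010 after quantile normalization. Rab28, of the cilium, was at 9.47, 13.1 and 9.98 TPM and at 11.2, 10.9 and 11.1 TPM. Its second control was the highest, its CRISPRi mice lay inside the control range, and the log2 fold change was 0.04 ± 0.18 (limma adjusted p 0.915). It turned to -0.16 after median-of-ratios scaling and -0.14 after quantile normalization.

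**Figure D4:**
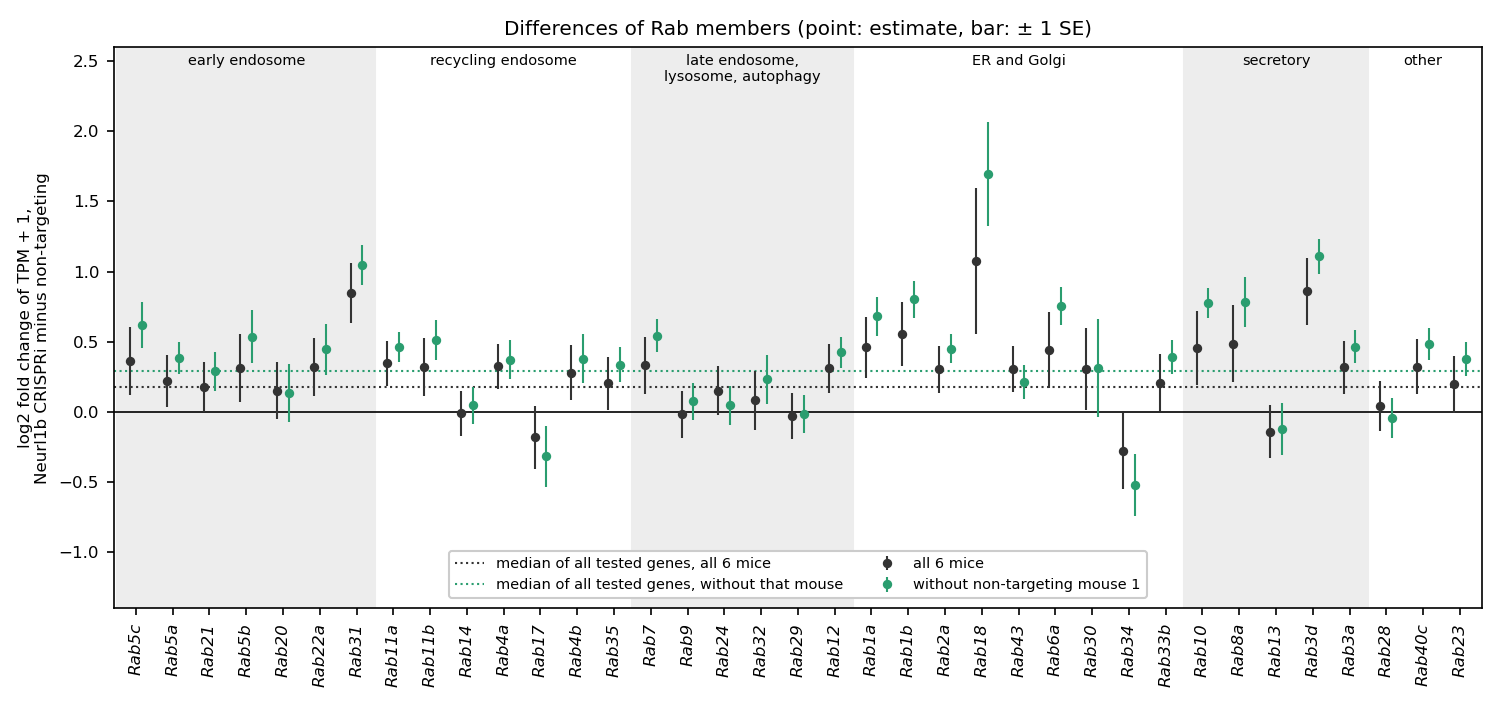
Log2 fold change of TPM + 1 (CRISPRi minus non-targeting; bars are ± 1 SE) of each Rab member from all 6 mice (black) and without non-targeting mouse 1 (green), with dotted lines at the medians of all tested genes (0.18 and 0.29). Rab31, Rab3d and Rab18 stand highest, and most black points lie between 0 and 0.5.

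At the level of single transcripts, 83 transcripts of the members had a mean of at least 1 TPM, and 25 members had more than 1. None passed the threshold (0 of 19849 transcripts did), the smallest adjusted p of a member transcript was 0.500, and 4 were higher and 1 lower at an unadjusted p of 0.05, where 6.69% and 3.07% of all transcripts were. The transcript that was lower belongs to Rab14 and is annotated as a retained intron: ENSMUST00000137709.2, of 657 nt, was at 4.20, 7.74 and 21.6 TPM in controls and 0, 1.47 and 0 TPM in CRISPRi mice. All 3 controls exceeded all CRISPRi mice (log2 fold change -2.90 ± 0.61, unadjusted p 0.00245, limma adjusted p 0.500), while the main Rab14 transcript was at 44.6 to 64.3 TPM in controls and 55.2 to 62.5 in CRISPRi mice.

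For Rab7, Rab1a and Rab18, chosen after their values were seen, the split between transcripts differed between controls. For Rab7, ENSMUST00000113600.10 was at 185, 86.9 and 58.2 TPM in controls and 146 to 164 TPM in CRISPRi mice, and ENSMUST00000113598.8 at 0.228, 40.5 and 59.8 TPM and 11.1 to 17.3 TPM. The second transcript was thus lowest in the first control and highest in the other two. For Rab1a, ENSMUST00000020358.12 was at 82.1, 26.1 and 15.3 TPM and 74.5 to 85.9 TPM, and ENSMUST00000163483.2 at 0.598, 20.4 and 29.4 TPM and 0.213 to 11.5 TPM. The Rab18 transcript ENSMUST00000234720.2 (354 nt, annotated for nonsense-mediated decay) was at 42.1, 10.5 and 2.17 TPM and 21.5 to 43.2 TPM, while the 6515 nt transcript ENSMUST00000234810.2 was at 18.8, 13.9 and 11.3 TPM and 17.8 to 19.3 TPM. The short transcript therefore carried more of the Rab18 spread than the long one. Kallisto divides reads between overlapping transcripts by estimation, and these splits are its estimates.

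**Figure D5:**
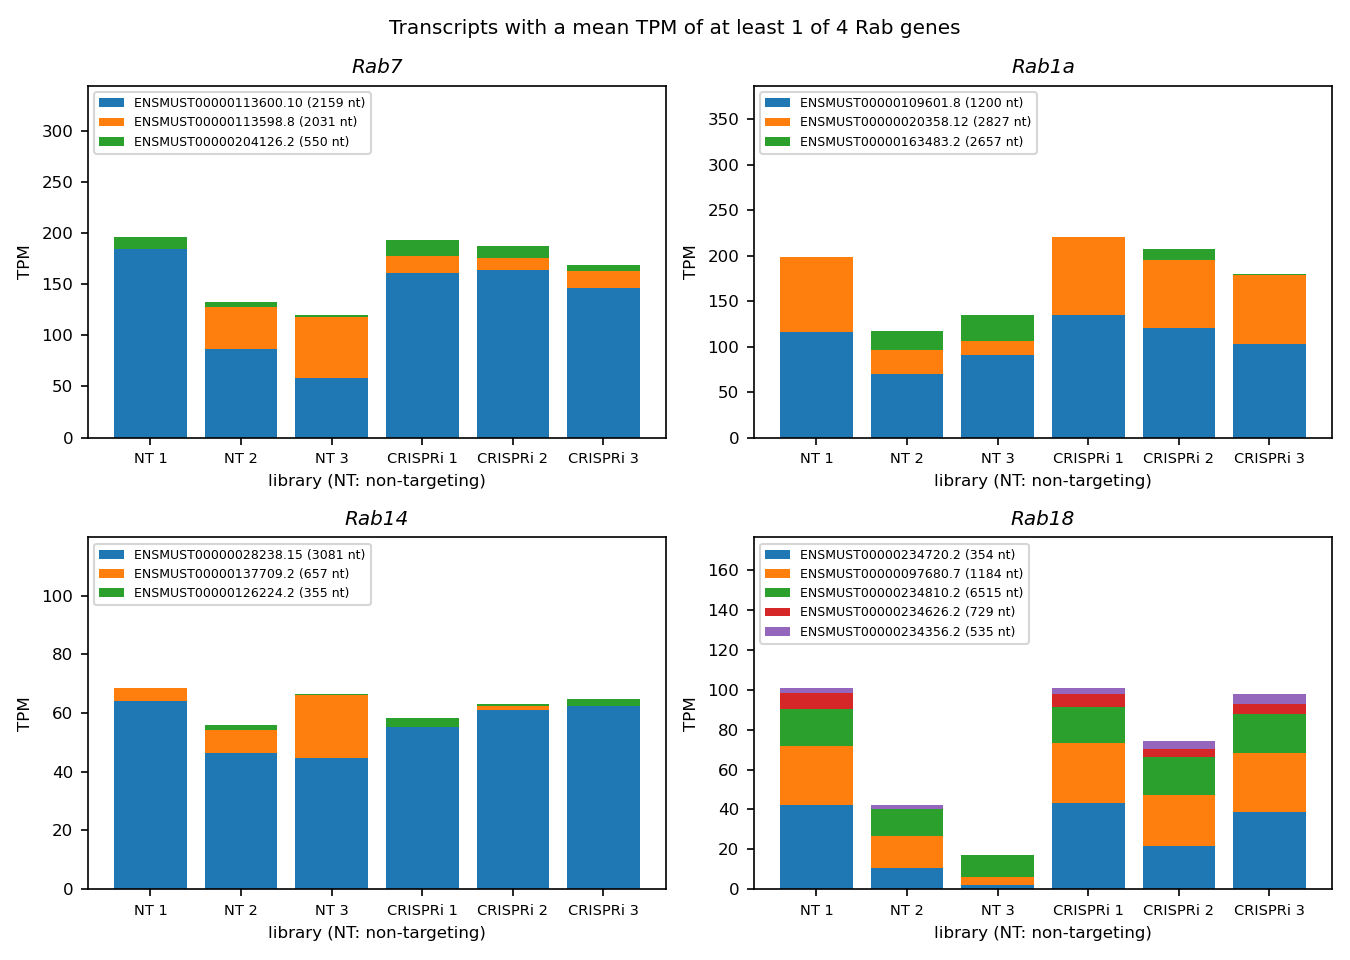
TPM of the transcripts of Rab7, Rab1a, Rab14 and Rab18 with a mean of at least 1 TPM, stacked in 1 bar per library (NT, non-targeting). The second Rab7 transcript and the third Rab1a transcript are largest in NT 2 and NT 3, and the Rab14 retained-intron transcript (657 nt) is seen mainly in the controls.

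Transcript length also differed between libraries. Over all tested transcripts, those under 1000 nt held 53.7%, 57.9% and 63.9% of the TPM in controls and 55.5% to 55.9% in CRISPRi mice, so the third control had the largest share of short transcripts. Among the Rab transcripts the share under 1000 nt was 19.4% to 20.9% in every library. Whether the length shift bears on the Rab levels of that mouse was not tested.

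Some members share sequence with other genes, and their values are uncertain. The pseudogene Rab11b-ps2 matches Rab11b at 99.8% over 654 nt and was listed at 3.76, 0 and 0 TPM in controls and 3.45, 1.71 and 3.44 TPM in CRISPRi mice. Rab24 overlaps Prelid1 on the other strand over 558 nt, and Prelid1 had a mean of 497 TPM. Rab6a overlaps Mrpl48 on the other strand over 409 nt (44.9 TPM), and Rab43 shares 4166 nt with Gm45140 (4.40 TPM). Strand use in the counting is not given in the sources used here, so reads of such pairs may not be separated.

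The 22 Rab genes below the limit had means of 0.00329 to 0.703 TPM and entered no count above. Rab27a, a Rab of granule docking, was at 0.589, 0.426 and 0.377 TPM in controls and 0.775, 0.798 and 0.788 TPM in CRISPRi mice. Its groups and those of Rab39 did not overlap, with CRISPRi mice higher, and the other 20 did overlap. Of all tested genes 12.5% were apart and higher, but those lie above the limit and are an unlike set. The 2 of 22 are no result about these genes. Brain-type paralogs such as Rab3c (0.0134 TPM) and Rab9b (0.00329 TPM) were close to 0.

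The genes that run the Rab cycle were taken from lists of escort and prenylation proteins, exchange factors, GTPase-activating proteins and effectors. Of 159 listed genes 126 were tested, with a median log2 fold change of 0.23 and 112 above 0. None passed the adjusted threshold, 12 were higher and 1 lower at an unadjusted p of 0.05 (9.52% and 0.794%, against 10.1% and 3.19% of all genes), and 20 were higher and 2 lower with groups apart (15.9% and 1.59%, against 12.5% and 4.57%). Without non-targeting mouse 1, 34 were higher and 1 lower (27.0% and 0.794%, against 23.1% and 2.24% of all genes). With median-of-ratios scaling in addition 0 were higher and 1, Grtp1, lower, where 1.74% and 2.74% of all genes were. That 1 gene is no result about the regulators.

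Genes of the escort and prenylation list had a median of 0.25 over 8 tested, all above 0. Rabac1, a membrane protein that binds Rabs, had 0.32 ± 0.19 (limma adjusted p 0.441). Without non-targeting mouse 1, Rabac1 had 0.22 (limma adjusted p 0.385). Exchange factors had a median of 0.22 over 46 tested, 41 above 0, with 4 higher and 0 lower at an unadjusted p of 0.05 (8.70% higher, against 10.1% of all genes higher and 3.19% lower). Rgp1, a subunit of a Golgi exchange factor for Rab6, was at 6.99, 3.85 and 4.52 TPM in controls and 8.90, 10.2 and 7.99 TPM in CRISPRi mice, groups that were apart. Its log2 fold change was 0.74 ± 0.22 (unadjusted p 0.0102, limma adjusted p 0.330). Dennd5a, an exchange factor that also binds Rab6, had 0.51 ± 0.19 (limma adjusted p 0.347). The exchange factors with the smallest p among those below 0 were Hps4 (-0.15), of lysosome-related organelles, and Trappc2l (-0.05), of the TRAPP complex.

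GTPase-activating proteins had a median of 0.24 over 32 tested, 27 above 0, with 1 higher and 1 lower at an unadjusted p of 0.05 (3.12% each, against 10.1% and 3.19% of all genes). The lower one was Grtp1, a TBC-domain protein, at 20.6, 21.7 and 18.6 TPM in controls and 14.0, 14.8 and 14.9 TPM in CRISPRi mice. All CRISPRi mice lay below all controls, including mouse 1. Its log2 fold change was -0.45 ± 0.16 (unadjusted p 0.0193, limma adjusted p 0.344), and without non-targeting mouse 1 it was -0.44 (limma adjusted p 0.0465), or -0.77 with median-of-ratios scaling in addition (limma adjusted p 0.0403). Tbc1d32 was also lower with groups apart, at -0.27 (limma adjusted p 0.434). Tbc1d17 had 0.43 and Tbc1d16 0.36, with groups apart for both.

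Effectors had a median of 0.29 over 40 tested, 36 above 0, with 7 higher and 0 lower at an unadjusted p of 0.05 (17.5%, against 10.1% and 3.19% of all genes). Micall2, which binds Rab13 and Rab8 at junctions, was at 1.62, 0.711 and 0.809 TPM in controls and 4.29, 3.55 and 1.78 TPM in CRISPRi mice. The groups were apart, though the third CRISPRi mouse came close to the first control, and the log2 fold change was 1.02 ± 0.28 (limma adjusted p 0.323). Plin3, a lipid droplet coat protein that binds Rab9, was at 32.2, 15.9 and 20.0 TPM and at 35.4, 35.2 and 38.9 TPM, also apart, with 0.72 ± 0.25 (limma adjusted p 0.344). The effectors with the smallest p among those below 0 were Mical3 (-0.19), which acts with Rab8, and Ocrl (-0.15), an inositol phosphatase that binds several Rabs.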

How the data were processed

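Ribosome-bound, poly(A)-selected liver RNA was measured in 6 libraries, 3 mice per guide, grouped by the sample titles. The authors deposited TPM for 117486 transcripts with gene symbols. Per the submitters' processing notes, kallisto and mm39 were used. Version, transcript set and filters were not given in the sources used here. Columns sum to 999999.8 to 1000000.2, so depth is unknown. Nothing ties a mouse number across groups, and p-values measure the spread between these mice. The labels name no batch.

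Transcripts were summed per symbol (168 without one were left out), symbols with a mean of at least 1 TPM were kept, and log2(TPM + 1), which understates changes of low genes, was fitted with limma 3.58.1 (R 4.3.3; trended prior, two-sided, no covariate) over all 10598 genes, with Benjamini-Hochberg adjusted p below 0.05 as threshold. The fit was run on simulated data with independent noise per gene and no shift shared by a whole library. It therefore cannot speak to library-wide shifts like those seen here. Named with full statistics are the most abundant member of each compartment and the 3 with the smallest p in each; Rab43, Rab17, Rab34, Rab13, Rab27a and the single transcripts are extra, chosen after their values were seen, and from each regulator list the 2 smallest p per direction, except 1 gene that is not reported here. Compartments follow each member's main location. Members and lists were chosen with earlier results of these data known. Transcript lengths, types and similarity (blastn 2.17.0, at least 95% over 200 nt) came from GENCODE vM21 (GRCm38, 99.0% of transcripts matched), another build than mm39. Promoters came from RefSeq GRCm38.p6.

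Alternatives were other pseudocounts (0.1, 5), filters, scalings, priors, array weights, the replicate block, each mouse left out, transcripts, an adjusted p of 0.1, and leaving out non-targeting mouse 1 with median-of-ratios scaling.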

Additional observations from a re-analysis of the deposited data

How the results depend on the processing

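Among all genes, where 2 passed the threshold, the count was 0 with a pseudocount of 5, 0 with no filter, 1 with a mean TPM of at least 5, 0 with quantile normalization, 2210 with array weights and 0 for transcripts. It was 473 with control mouse 1 left out under median-of-ratios scaling, and ranged from 0 (control mouse 3 left out) to 2673 (control mouse 1 left out) when single mice were dropped. Rab members past it, 0 with all mice, numbered 11 of 37 with array weights, where 2210 of 10598 genes passed. They numbered 2 with control mouse 1 left out under median-of-ratios scaling (5.41%, against 1.74% of all genes higher and 2.74% lower). When single mice were dropped they numbered 0 to 16. The 16 (43.2%) came without control mouse 1, against 23.1% of all genes higher and 2.24% lower. Regulators, also 0 of 126, numbered 23, 1 and 0 to 35 in the same settings, with 27.0% higher and 0.794% lower without control mouse 1.

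The median log2 fold change of the Rab members, 0.31, was 0.10 under median-of-ratios scaling, 0.13 under quantile normalization, 0.094 with control mouse 1 left out as well as scaled, and 0.15 to 0.39 when single mice were dropped. Recycling Rabs (0.28) gave 0.076, 0.10, 0.028 and 0.11 to 0.37 in the same order. Late endosome, lysosome and autophagy Rabs (0.12) gave -0.091, -0.037, -0.19 and 0.070 to 0.15, and 0.23 for transcripts. Secretory Rabs (0.46) gave 0.25 under median-of-ratios scaling, 0.30 under quantile normalization, 0.19 with no filter, 0.66 with array weights, 0.15 for transcripts and 0.22 to 0.78 when single mice were dropped. The 3 members of other roles (0.20) gave -0.010 under quantile normalization and 0.081 to 0.38 when single mice were dropped. Early endosome Rabs (0.31) gave 0.11 under median-of-ratios scaling, 0.13 under quantile normalization and 0.12 with control mouse 1 left out as well as scaled, and ER and Golgi Rabs (0.31) gave 0.10, 0.21 and 0.12. When single mice were dropped these ran over 0.10 to 0.44 and 0.30 to 0.49.

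Of the 18 members with full statistics, 3 changed sign in some setting. Rab24 (0.15) gave -0.060 under median-of-ratios scaling and -0.30 with control mouse 1 also left out. Rab28 (0.04) gave -0.16 under median-of-ratios scaling, -0.14 under quantile normalization, -0.030 with array weights, -0.37 scaled with control mouse 1 left out, and -0.043 to 0.17 when single mice were dropped, including -0.0083 with control mouse 3 left out. Rab23 (0.20) gave -0.010 under quantile normalization. The cause was not tested.

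Deviations from the group mean correlated at 0.0614, -0.0960 and -0.277 between same-numbered mice of the 2 groups. The other pairs gave -0.170 to 0.222. Deviations within groups of 3 mice are tied to each other, so these values cannot decide whether the numbers mark a pairing. With the mouse number as a replicate block, 2 genes, 0 Rab members and 0 regulators passed, and the Rab median stayed at 0.31. The unknown depth limits what can be said of low members such as Rab31.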
